A study of Mus musculus with 20 samples.

Results

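The interferon-stimulated genes described here are 45 genes that cells switch on in response to interferon, taken by gene symbol from the 45777 genes of the deposited table. All 45 symbols were found, and all 45 passed the filter on low values together with 18706 genes in all. They were measured by RNA sequencing of the uterus of 20 pregnant wild-type B6D2F1 mice, aged 8 to 12 weeks, at 18:00 on day 3.5 of pregnancy, before embryo attachment, with the morning of the vaginal plug as day 0.5. The study asked how the uterus of a mouse model of implantation failure differs from that of a normal pregnancy, and how it differs after peripheral blood mononuclear cells (PBMC) have been placed in the uterus.

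There were 4 groups of 5 mice, with 1 library per mouse. The control group was pregnant and untreated. The implantation failure (IF) group received RU486, which blocks the progesterone receptor and the glucocorticoid receptor, 3 mg/kg subcutaneously, at 9:00 on day 3.5. The PBMC group received on day 1.5 an injection into each uterine horn of 50000 PBMC that had been cultured for 24 h, and then RU486 as in the IF group. In the PBMC-hCG group the cells had been cultured with human chorionic gonadotropin (hCG) at 5 IU/mL, and the rest was described as in the PBMC group. The study's methods do not say whether the medium injected with these cells held hCG. The PBMC came from non-pregnant mice. A group given culture medium alone was not analysed here, so the cells, their medium and the injection cannot be told apart in a comparison with the IF group. The labels name no batch or date.

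Interferons are secreted proteins that cells release on sensing foreign or misplaced nucleic acid. Type I interferons bind a receptor that activates the Janus kinases, and these lead to a complex of transcription factors, with STAT2 and IRF9 among its subunits, that binds the interferon-stimulated response element (ISRE) in promoters. The products block viral replication, sense nucleic acid, conjugate the ubiquitin-like protein ISG15 to other proteins and limit the signal itself. In the uterus of many mammals, genes of this kind are known to change in early pregnancy.

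The pattern across the 4 groups was a rise in the IF group over control and a higher level again in the PBMC-hCG group, while the PBMC group stayed close to the IF group. Of the 45 genes, 21 rose in IF against control, 20 rose in PBMC against control and 0 changed in PBMC against IF. In PBMC-hCG, 26 rose against IF and 42 against control. In the direct comparison of PBMC-hCG against PBMC 0 passed, although all 45 were higher in PBMC-hCG, as were 54.5% of all tested genes. None fell in any of the 6 comparisons (limma, Benjamini-Hochberg adjusted p under 0.05 over all tested genes). The PBMC-hCG group had the highest mean of the 4 groups for 44 of the 45 genes, as against 37.5% of all tested genes, and the control group the lowest mean for 42 of them, as against 39.5% of all tested genes. The calls in PBMC-hCG against IF depended on single mice, as given with that comparison.

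The binding letters of the interferon-activated complex could be seen in the promoters of many of these genes. The windows below were picked from genes whose promoters hold these letters, so every window holds a match. Among such genes they cover large, small and variable differences between the groups. Oasl1, Oasl2, Cmpk2 and Dtx3l, whose promoters hold no match, and Mx1, which has no promoter listed, are not shown. RefSeq promoters of GRCm38.p6, the build that the authors' mm10 corresponds to, covering 250 bases before and 50 bases after the gene start, were matched to 35 of the 45 genes. Capitals mark matches to the ISRE core, the letters GAAA, any 2 bases and GAAA again, searched on both strands, so that a match on the other strand reads TTTC, any 2 bases and TTTC, and overlapping matches run together. Each window is written 5′ to 3′ on the strand of its gene and lies before the start that the promoter table gives. For Ifit3 and Ifit3b that start is later than the beginning of the gene span given with them, so their windows lie inside those spans.
Isg15 (chr4:156200861-156200910, minus strand): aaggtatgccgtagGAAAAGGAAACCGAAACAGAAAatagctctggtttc
Ifit1 (chr19:34640771-34640827, plus strand): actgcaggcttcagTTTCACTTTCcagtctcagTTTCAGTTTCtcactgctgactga
Ifit3 (chr19:34583359-34583430, plus strand): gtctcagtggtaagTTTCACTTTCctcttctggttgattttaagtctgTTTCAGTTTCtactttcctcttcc
Ifit3b (chr19:34607755-34607826, plus strand): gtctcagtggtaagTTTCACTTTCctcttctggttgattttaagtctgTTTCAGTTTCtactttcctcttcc
Rsad2 (chr12:26456549-26456586, minus strand): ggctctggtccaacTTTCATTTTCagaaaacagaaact
Irgm1 (chr11:48871421-48871464, minus strand): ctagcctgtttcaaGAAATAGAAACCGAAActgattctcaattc
Gbp2 (chr3:142620590-142620627, plus strand): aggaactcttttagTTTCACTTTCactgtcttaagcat
Bst2 (chr8:71537573-71537616, minus strand): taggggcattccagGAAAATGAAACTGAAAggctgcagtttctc
Cxcl10 (chr5:92349079-92349116, minus strand): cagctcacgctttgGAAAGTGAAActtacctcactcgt

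The Isg15 window held 3 overlapping matches, the windows of Ifit1, Ifit3, Ifit3b, Irgm1 and Bst2 held 2 each, and those of Rsad2, Gbp2 and Cxcl10 held 1. The windows of Ifit3 and its neighbour Ifit3b were identical. At least 1 match lay in the promoters of 18 of the 35 genes (51.4%), as against 3.44% of all 32851 promoters of the same length and 3.99% of the 27025 genes that have one. The letters TTCNNNGAA, the core of the gamma-activated site (GAS) of genes that respond to interferon gamma, were found on both strands in 6 of the 35 genes (17.1%), as against 8.3% of all promoters and 9.55% of the genes that have one. A match is a run of letters and not a measured binding site.

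The differences between groups were set out for genes with and without the ISRE core. The median log2 difference of PBMC-hCG against IF was 0.69 for the 18 genes with the letters and 0.70 for the 17 genes without, and the test was passed by 7 and 11 of them. In IF against control the medians were 0.59 and 0.33, with 9 and 5 genes passing. In PBMC-hCG against control they were 1.25 and 0.81, with 17 and 15 genes passing. These medians are descriptions of the genes, and the differences between them were not tested.

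The level of the 45 genes was summarised in each mouse as the median, over the genes, of the log2 value of TPM plus 0.1 (TPM is the deposited unit, corrected for transcript length and for the total of the library), relative to the control mean of each gene. In the 5 control mice this median was 0.045, 0.36, -0.043, -0.13 and -0.24. In the 5 IF mice it was 0.50, 0.49, 1.03, 0.51 and 0.19. All but IF mouse 5 were above every control mouse. The PBMC mice were at 0.32, 0.75, 0.34, 1.13 and 0.31. PBMC mice 2 and 4 stood above the others, and mouse 4 was as high as mice of the next group. The PBMC-hCG mice were at 0.82, 1.40, 1.40, 1.42 and 0.83. Mice 2, 3 and 4 of this group were the highest of the 20, and mice 1 and 5 lay below IF mouse 3 and PBMC mouse 4.

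**Figure D1:**
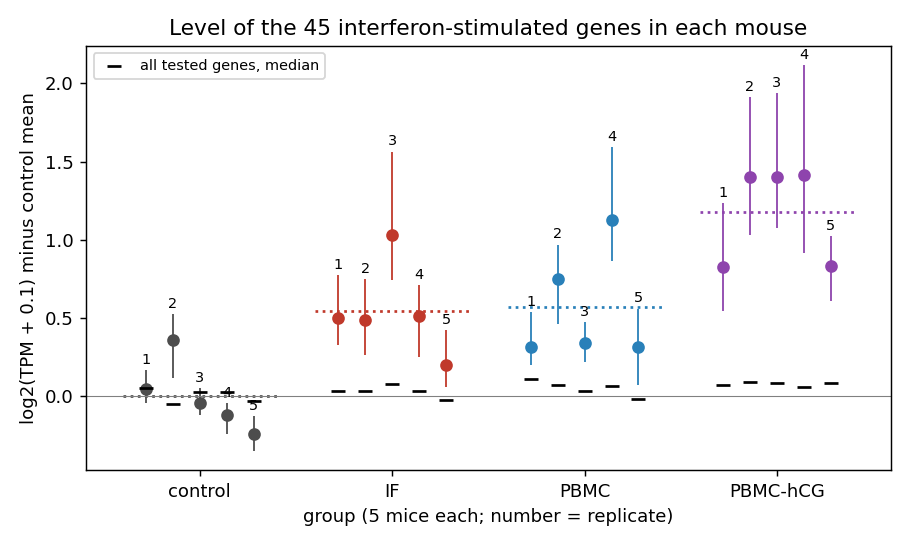
Level of the 45 interferon-stimulated genes in each of the 20 mice. Points are the median over the genes of log2(TPM + 0.1) minus the control mean of the gene, coloured bars span the lower to the upper quartile of the genes, dotted lines are the means of the 5 medians, black dashes are the median of all 18706 tested genes, and numbers are replicates; the PBMC-hCG mice lie between 0.82 and 1.42, and the highest control mouse is at 0.36.

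Single mice carried much of the spread within a group. IF mouse 3 was the highest of its group for 41 of the 45 genes, as against 35.8% of all tested genes, and PBMC mouse 4 for 42, as against 22.1%. Control mouse 2 was the highest control for 27 of the genes, as against 28.7% of all tested genes. Control mouse 5, PBMC mouse 5 and PBMC-hCG mouse 5 were the lowest of their groups for 29, 17 and 27 genes. The shares over all tested genes that go with these counts were not worked out. IF mouse 5 was the lowest of its group for 37, a count whose share was not worked out either. The median of all tested genes in that mouse was -0.025 relative to control, also the lowest of the IF mice. Results that rest on these mice are given with and without them.

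**Figure D2:**
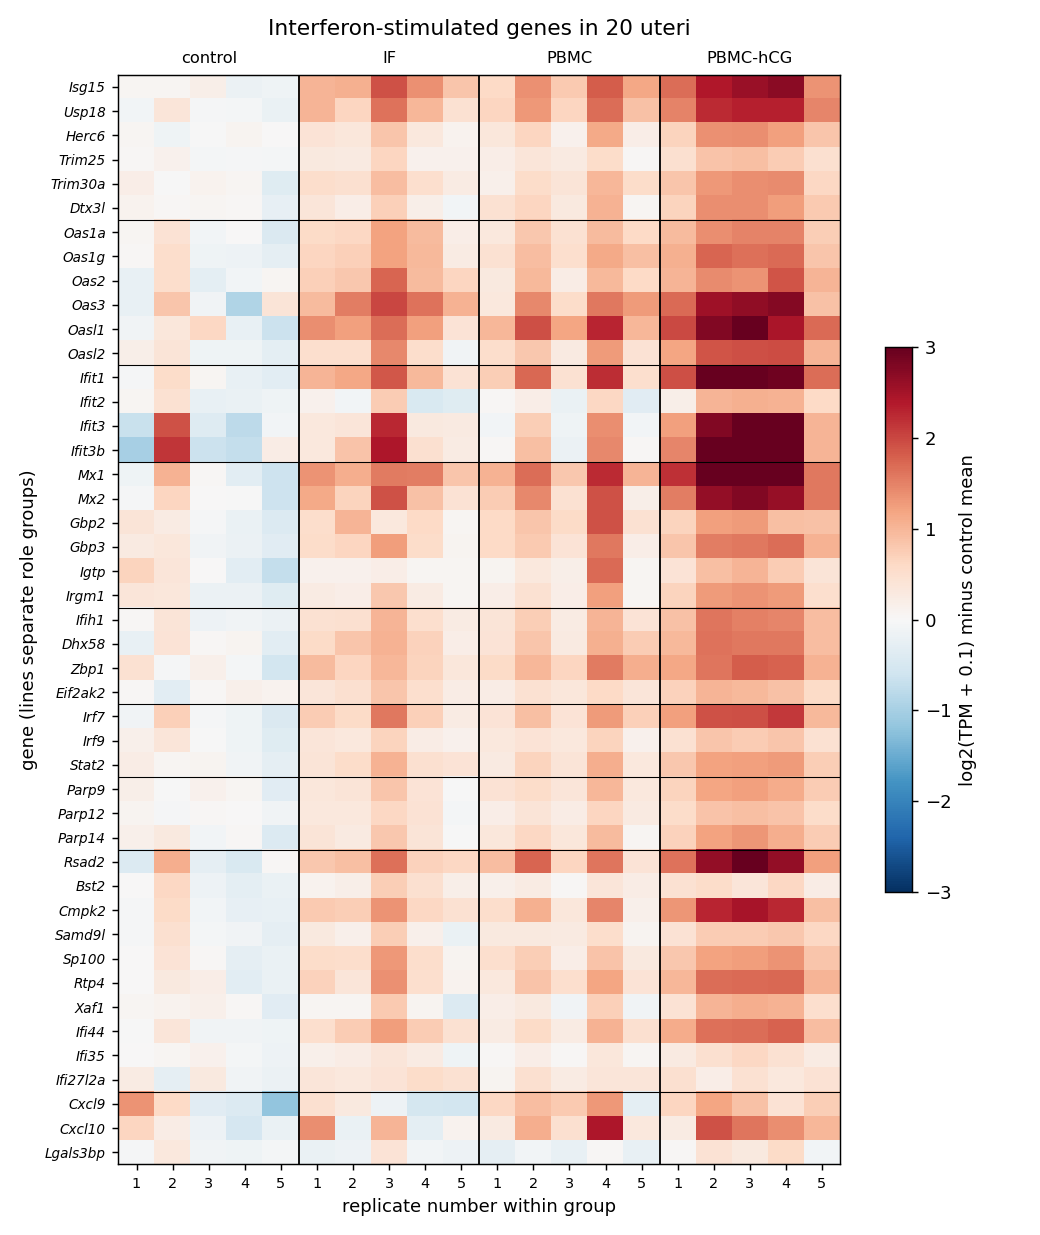
Each of the 45 genes (rows, grouped by role) in each of the 20 mice (columns), as log2(TPM + 0.1) minus the control mean of the gene, with the colour scale ending at 3 and -3. Red is above the control mean; PBMC-hCG mice 2, 3 and 4 are the darkest columns, and IF mouse 3 and PBMC mouse 4 stand out within their groups.

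In IF against control, the RU486-treated uteri had higher levels of 21 of the 45 genes, led by Oas3, Mx1 and Isg15, and lower levels of 0. Over all 18706 tested genes 13.4% rose in this comparison, as against 21 of 45 here. The median difference of the 45 genes was 0.58 on the log2 scale, and that of all tested genes was 0.022. A rise was seen in 5 of the 6 genes of the oligoadenylate synthetase family, of which Oas1a and Oas1g share much of their sequence. It was also seen in 4 of the 4 nucleic acid sensors and 3 of the 6 genes of the group of Isg15 and ubiquitin-related enzymes. Of the transcription factors 2 of the 3 rose, as did 2 of the 6 GTPases and 3 of the 10 other intracellular effectors. The counts were 1 of the 4 IFIT genes, 1 of the 3 PARP genes and 0 of the 3 genes of secreted proteins. The values of the 5 IF mice did not overlap those of the 5 control mice for 10 genes, all higher in IF, while 8.55% of all tested genes were higher without overlap.

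When 1 mouse was left out at a time, the number of genes that rose in IF against control ranged from 13 without control mouse 5 to 26 without control mouse 2 or IF mouse 5, and it was 14 without control mouse 4 or IF mouse 3. In every one of these 10 fits 13 of the 21 genes passed. Scaling each library to the reference genes Gapdh and Rplp0 left 11, with a median of 0.54, while calls over all tested genes went from 4104 to 3082. In a bulk sample, fewer cells of a type and less RNA per cell cannot be told apart.

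In PBMC against IF, cells cultured without hCG were followed by no detectable difference. Of the 45 genes, 0 passed the limma test in either direction, 0 had an unadjusted p under 0.05, and 0% of all tested genes rose, while 6.79% had an unadjusted p under 0.05. The differences ranged from -0.42 for Ifit3b to 0.76 for Cxcl9, with a median of 0.026. Of the 45 genes 25 were above 0, near the share of all tested genes, 55.4%. The 95% interval of the difference ran from -0.64 to 0.46 for Isg15, from -0.72 to 0.80 for Ifit1 and from -0.03 to 1.56 for Cxcl9, so that these samples do not show that the groups were alike. Against control, 20 of the 45 genes rose in the PBMC group, as against 12.8% of all tested genes, with a median of 0.54. That number was 7 without PBMC mouse 4, 8 without control mouse 5, 10 without PBMC mouse 2, 11 without control mouse 4, 13 without control mouse 3 and 32 without control mouse 2, and 7 genes passed in every one of the 10 fits.

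In PBMC-hCG against IF, 26 of the 45 genes rose and 0 fell, and Ifit1, Mx1 and Rsad2 had the largest differences among those that passed. Over all tested genes 7.61% rose. The median difference of the 45 genes was 0.70 and that of all tested genes was 0.049. Above 0 were 44 of the 45 genes, as against 56.7% of all tested genes. All 6 genes of the group of Isg15 and ubiquitin-related enzymes rose, as did all 3 PARP genes and 3 of the 4 nucleic acid sensors. The same held for 3 of the 6 genes of the oligoadenylate synthetase family, 3 of the 6 GTPases and 2 of the 4 IFIT genes. Further calls were 1 of the 3 transcription factors and 5 of the 10 other effectors, while 0 of the 3 genes of secreted proteins passed.

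These 26 calls sat close to the threshold, with limma adjusted p between 0.0258 and 0.0479. Leaving out any of IF mice 2, 4 or 5, or any of PBMC-hCG mice 2, 3 or 4, left 0 genes passing while calls over all tested genes dropped from 2544 to between 0 and 18, and 1 passed without PBMC-hCG mouse 5, 20 without IF mouse 1, 33 without PBMC-hCG mouse 1 and 38 without IF mouse 3. With all mice 39 of the genes were higher at an unadjusted p under 0.05, as were 20.7% of all tested genes, and in the same 10 fits between 32 and 41 were, and the median difference stayed between 0.59 and 0.82. With no filter on low values 7 genes passed and calls over all tested genes went from 2544 to 812, with the median of the 45 genes still at 0.70. The values of the groups did not overlap for 4 genes, Oasl1, Mx1, Igtp and Zbp1, while 5.05% of all tested genes were higher without overlap.

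In PBMC-hCG against PBMC, the described difference was hCG during the culture of the cells. An effect through the cells and one of hCG carried into the uterus cannot be told apart. Of the 45 genes 0 passed limma's adjusted test, where 0.00535% of all tested genes were higher. At an unadjusted limma p under 0.05, 39 were higher, as against 8.66% of all tested genes. All 45 genes were higher in the PBMC-hCG group, as were 54.5% of all tested genes. The median difference was 0.61, as against 0.024 for all tested genes. Weighting the libraries by their quality let 33 pass, while calls over all tested genes went from 2 to 1461. By the study's rule of a fold change of at least 2 with an unadjusted p under 0.05, 8 genes were higher in PBMC-hCG than in PBMC and 10 higher than in IF, where 0.385% and 1.09% of all tested genes were. By the same rule 5 were higher in IF than in control (2.12% of all tested genes), 7 in PBMC than in control (1.8%) and 30 in PBMC-hCG than in control (2.73%). Only Oas2 had groups that did not overlap, while 1.99% of all tested genes were higher without overlap.

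In PBMC-hCG against control, where the cells, the injection and RU486 all differ, 42 of the 45 genes rose, as against 20.2% of all tested genes, and Igtp, Cxcl9 and Lgals3bp did not pass. The median difference was 1.21 and that of all tested genes 0.076. Groups did not overlap for 35 genes, while 13.2% of all tested genes were higher without overlap. Between 40 and 44 genes passed when 1 mouse was left out at a time, and 40 passed in every fit.

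**Figure D3:**
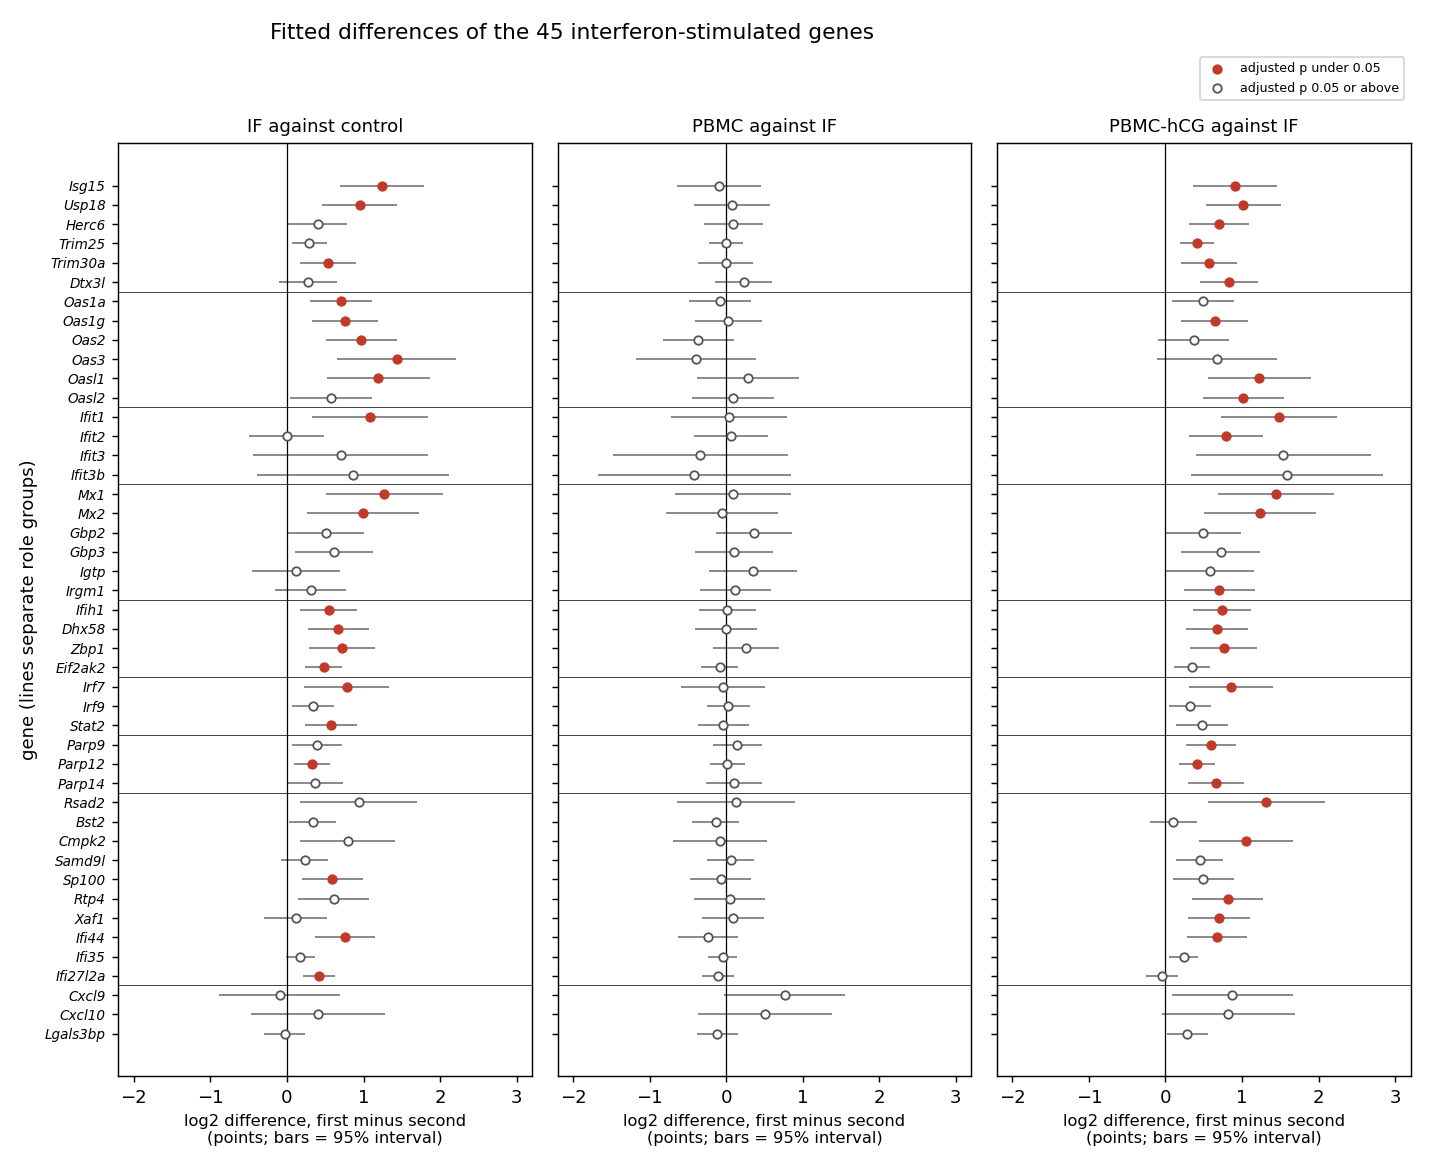
Fitted log2 differences of the 45 genes in 3 comparisons, with 95% intervals, on the log2(TPM + 0.1) scale. Filled points passed the limma test at an adjusted p under 0.05, which 21 genes did in IF against control, 0 in PBMC against IF and 26 in PBMC-hCG against IF.

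Isg15 (NCBI Gene 100038882, chr4:156199424-156200818), the ubiquitin-like protein that is attached to other proteins and also secreted, was the most abundant gene of its group, Isg15 and ubiquitin-related enzymes. It measured 35.7, 35.7, 38.8, 30.2 and 31.2 TPM in the 5 control mice and 69.4, 72.00, 128, 89.2 and 60.8 TPM in the IF mice. In the PBMC mice it measured 51.8, 89.2, 59.4, 120.03 and 77.1 TPM, and in the PBMC-hCG mice 109, 182, 207, 224 and 87.5 TPM. Every treated mouse was above every control, and 3 PBMC-hCG mice were above every other mouse. The log2 difference was 1.24 ± 0.26 (limma adjusted p = 0.00208) in IF against control and 0.90 ± 0.26 (adjusted p = 0.0363) in PBMC-hCG against IF, a call that was lost without the mice named for that comparison.

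The other genes of this group include Usp18, which removes ISG15 and damps signalling at the interferon receptor, and Herc6, the ligase that attaches ISG15 in the mouse. The ligases Trim25, Trim30a and Dtx3l were placed with them as ubiquitin-related enzymes. Counts for the group are therefore not counts of genes of ISG15 attachment. Usp18 rose by 0.95 ± 0.24 on the log2 scale in IF against control (limma adjusted p = 0.00703) and by 1.02 ± 0.24 in PBMC-hCG against IF (adjusted p = 0.0287). Dtx3l had the smallest adjusted p of the 45 genes in PBMC-hCG against IF, with a difference of 0.83 ± 0.18 (limma adjusted p = 0.0258), and did not pass in IF against control (0.27 ± 0.18). Herc6 and Trim25 did not pass in IF against control and rose in PBMC-hCG against IF, and Trim30a rose in both.

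The oligoadenylate synthetases make a short oligonucleotide, on sensing double-stranded RNA, that activates RNase L. Oas3 (NCBI Gene 246727, chr5:120753098-120777684) had the largest difference of the 45 genes in IF against control. It measured 2.25, 4.73, 2.44, 1.36 and 3.45 TPM in control and 5.13, 7.83, 10.8, 8.32 and 5.51 TPM in IF. It measured 3.28, 7.30, 3.89, 8.10 and 6.47 TPM in PBMC and 8.71, 15.8, 17.02, 18.4 and 4.88 TPM in PBMC-hCG. The IF mice were all above the controls, 2 PBMC mice lay among the controls, and PBMC-hCG mouse 5 was below every IF mouse. The difference was 1.43 ± 0.37 (limma adjusted p = 0.00963) in IF against control and 0.67 ± 0.37 (adjusted p = 0.203) in PBMC-hCG against IF, which did not pass.

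Oasl1 (NCBI Gene 231655, chr5:114923143-114937911), a relative without synthetase activity that restrains translation of Irf7, measured 2.86, 3.92, 4.75, 2.61 and 1.92 TPM in control and 8.20, 7.33, 10.03, 7.38 and 4.11 TPM in IF. It reached 6.24, 11.9, 7.08, 15.3 and 6.16 TPM in PBMC and 12.4, 21.7, 28.5, 17.1 and 10.1 TPM in PBMC-hCG. Every PBMC-hCG mouse was above every IF mouse, although the lowest of the one and the highest of the other were nearly equal, and 1 control was above the lowest IF mouse. It rose by 1.19 ± 0.32 in IF against control (limma adjusted p = 0.0118), by 1.22 ± 0.32 in PBMC-hCG against IF (adjusted p = 0.0307) and by 1.48 ± 0.32 in PBMC against control (adjusted p = 0.00301), where it had the largest difference of the 45 genes.

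Oasl2 (NCBI Gene 23962, chr5:114896926-114912245), the most abundant of the family here, measured 42.8, 49.2, 34.3, 34.6 and 30.6 TPM in control and 53.7, 53.9, 103, 54.7 and 34.8 TPM in IF. It measured 54.4, 66.4, 45.6, 91.7 and 50.9 TPM in PBMC and 85.6, 139.97, 143, 146 and 76.8 TPM in PBMC-hCG. IF mouse 3 and PBMC mouse 4 were above PBMC-hCG mice 1 and 5. It did not pass in IF against control (0.58 ± 0.25, limma adjusted p = 0.114) and rose by 1.02 ± 0.25 in PBMC-hCG against IF (adjusted p = 0.0287). Oas1a and Oas1g, which share 57.6% and 54.1% of their 50-base words with each other, cannot be counted as separate evidence; both rose in IF against control. Oas2 differed in IF against control by 0.97 ± 0.22 (limma adjusted p = 0.00375) and in PBMC-hCG against IF by 0.37 ± 0.22, which did not pass.

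The IFIT proteins bind viral RNA that lacks the host's cap modification and stop its translation. Ifit1 (NCBI Gene 15957, chr19:34640889-34650009) had the largest difference of the genes that passed in PBMC-hCG against IF. It measured 11.8, 17.8, 12.6, 10.4 and 9.75 TPM in control and 24.7, 27.2, 44.9, 24.03 and 16.4 TPM in IF. It measured 20.4, 40.6, 16.8, 57.01 and 17.4 TPM in PBMC and 47.1, 100.4, 121, 92.3 and 39.1 TPM in PBMC-hCG. PBMC-hCG mice 2, 3 and 4 were above every other mouse, and IF mouse 5 lay below the highest control. The log2 difference was 1.09 ± 0.36 (limma adjusted p = 0.0377) in IF against control, a call kept in 2 of the 10 fits that leave out 1 mouse, and 1.48 ± 0.36 (adjusted p = 0.0287) in PBMC-hCG against IF.

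Ifit3 (NCBI Gene 15959, chr19:34583119-34588982) and Ifit3b (NCBI Gene 667370, chr19:34607530-34613403) had, with Cxcl10, the widest spread within groups, and lie side by side with identical promoter windows. Of the 50-base words of their transcripts, 51.2% of those of Ifit3 and 44.5% of those of Ifit3b are shared with the other, so the split of reads between them is uncertain. Ifit3 measured 10.3, 61.9, 12.5, 9.41 and 15.5 TPM in control and 20.4, 21.1, 78.8, 20.1 and 19.7 TPM in IF. It measured 15.4, 27.5, 14.9, 43.1 and 15.3 TPM in PBMC and 38.6, 113, 130.4, 149.7 and 33.5 TPM in PBMC-hCG. Control mouse 2 and IF mouse 3 stood apart from the rest of their groups and were above PBMC-hCG mice 1 and 5.

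Ifit3b followed the same mice, at 4.07, 36.9, 5.29, 4.95 and 9.61 TPM in control and 10.4, 15.1, 44.8, 11.5 and 9.76 TPM in IF. It measured 8.52, 15.6, 7.29, 22.7 and 8.43 TPM in PBMC and 23.04, 67.1, 85.3, 89.8 and 16.9 TPM in PBMC-hCG. All 4 groups overlapped. The 2 genes had the largest fitted differences of the 45 in PBMC-hCG against IF, 1.54 ± 0.55 for Ifit3 and 1.59 ± 0.60 for Ifit3b, and neither passed (limma adjusted p = 0.0621 and 0.0748). Both rose in PBMC-hCG against control, by 2.24 ± 0.55 and 2.46 ± 0.60 (limma adjusted p = 0.00455 and 0.00465). Ifit2 did not pass in IF against control (-0.01 ± 0.23) and rose by 0.79 ± 0.23 in PBMC-hCG against IF (limma adjusted p = 0.0378).

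Among the GTPases, Mx1 (NCBI Gene 17857, chr16:97447035-97462906), which traps viral nucleoproteins in the nucleus, had the largest difference of the 45 genes in PBMC-hCG against control. It measured 1.81, 4.19, 2.04, 1.58 and 1.25 TPM in control and 5.19, 4.35, 6.07, 5.95 and 3.61 TPM in IF. It measured 4.18, 6.61, 3.56, 9.78 and 4.16 TPM in PBMC and 9.44, 16.6, 25.1, 19.02 and 6.16 TPM in PBMC-hCG. All PBMC-hCG mice were above all IF mice, mouse 5 by a small margin, and 1 control was above the lowest IF mouse. It rose by 1.27 ± 0.36 in IF against control (limma adjusted p = 0.0168), by 1.44 ± 0.36 in PBMC-hCG against IF (adjusted p = 0.029) and by 2.71 ± 0.36 in PBMC-hCG against control (adjusted p = 3.17e-05).

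Irgm1 (NCBI Gene 15944, chr11:48865245-48871420), an immunity-related GTPase that acts at intracellular membranes and in autophagy, had the highest mean of the GTPases. It measured 63.4, 62.2, 43.3, 43.01 and 38.3 TPM in control and 58.4, 55.8, 85.8, 58.1 and 51.01 TPM in IF. It measured 55.8, 67.2, 56.4, 115 and 51.3 TPM in PBMC and 77.99, 118, 125, 119 and 69.96 TPM in PBMC-hCG. Control mice 1 and 2 were above every IF mouse but mouse 3, and PBMC mouse 4 was nearly as high as PBMC-hCG mice 2, 3 and 4. It did not pass in IF against control (0.31 ± 0.22, limma adjusted p = 0.351) and rose by 0.71 ± 0.22 in PBMC-hCG against IF (adjusted p = 0.0445).

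The guanylate-binding protein Gbp2 and the immunity-related GTPase Igtp belong to families that respond strongly to interferon gamma. Igtp measured 34.9, 34.9, 36.5, 33.00 and 32.96 TPM in the IF mice, a narrow range, and 33.6, 39.6, 36.1, 103 and 33.01 TPM in the PBMC mice, of which mouse 4 stood far apart. It was at 50.8, 40.6, 31.8, 25.5 and 19.2 TPM in control and 42.4, 59.7, 64.7, 53.7 and 41.3 TPM in PBMC-hCG, and passed in no comparison. Gbp2 was 62.5, 73.6, 62.1, 155 and 56.6 TPM in the PBMC mice, with mouse 4 again apart. Every PBMC mouse was above every control, of which the highest was at 54.5 TPM. Gbp2 rose in PBMC against control, a call kept in all 10 fits that leave out 1 mouse. It also rose in PBMC-hCG against control, by 0.998 ± 0.24 (limma adjusted p = 0.00392). Gbp3, of the family of Gbp2, differed by 0.61 ± 0.25 in IF against control (limma adjusted p = 0.0814) and by 0.72 ± 0.25 in PBMC-hCG against IF (adjusted p = 0.0549). Igtp, Gbp2 and Gbp3 were chosen for this paragraph after their values were seen.

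The nucleic acid sensors all rose in IF against control, Ifih1 in 3 of the 10 fits that leave out 1 mouse. They were Ifih1 and Dhx58, which bind double-stranded RNA, Eif2ak2, the kinase that stops translation on binding it, and Zbp1, which senses left-handed nucleic acid and can start necroptosis. Zbp1 (NCBI Gene 58203, chr2:173206612-173218959) measured 18.5, 13.1, 14.9, 12.9 and 9.17 TPM in control and 25.8, 21.1, 26.6, 21.2 and 16.99 TPM in IF. It measured 19.9, 26.9, 20.8, 39.9 and 28.6 TPM in PBMC and 29.9, 40.9, 47.7, 45.9 and 27.5 TPM in PBMC-hCG. Each PBMC-hCG mouse was above each IF mouse, and every PBMC mouse was above every control. It rose by 0.72 ± 0.21 in IF against control (limma adjusted p = 0.0182) and by 0.76 ± 0.21 in PBMC-hCG against IF (adjusted p = 0.0325). Eif2ak2 rose in IF against control by 0.48 ± 0.11 (limma adjusted p = 0.00533) with groups that did not overlap, and was just outside the threshold in PBMC-hCG against IF (0.35 ± 0.11, adjusted p = 0.0501).

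Irf7 (NCBI Gene 54123, chr7:141263183-141266499), the transcription factor that drives further production of interferon alpha, had the highest mean of the transcription factors. It measured 30.99, 54.2, 32.1, 30.4 and 24.5 TPM in control and 56.7, 49.4, 100.04, 54.2 and 39.6 TPM in IF. It measured 44.3, 61.7, 43.9, 80.01 and 54.3 TPM in PBMC and 78.02, 125, 127, 144 and 65.05 TPM in PBMC-hCG. Control mouse 2 was as high as the middle IF mice, and IF mouse 3 was above PBMC-hCG mice 1 and 5. The rise was 0.78 ± 0.26 in IF against control (limma adjusted p = 0.0401), kept in 3 of the 10 fits that leave out 1 mouse, and 0.85 ± 0.26 in PBMC-hCG against IF (adjusted p = 0.0423). Stat2, a subunit of the complex that binds the ISRE, rose in IF against control by 0.58 ± 0.16 (limma adjusted p = 0.0152), and its partner Irf9 passed only in PBMC-hCG against control (0.67 ± 0.13, limma adjusted p = 0.000962).

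**Figure D4:**
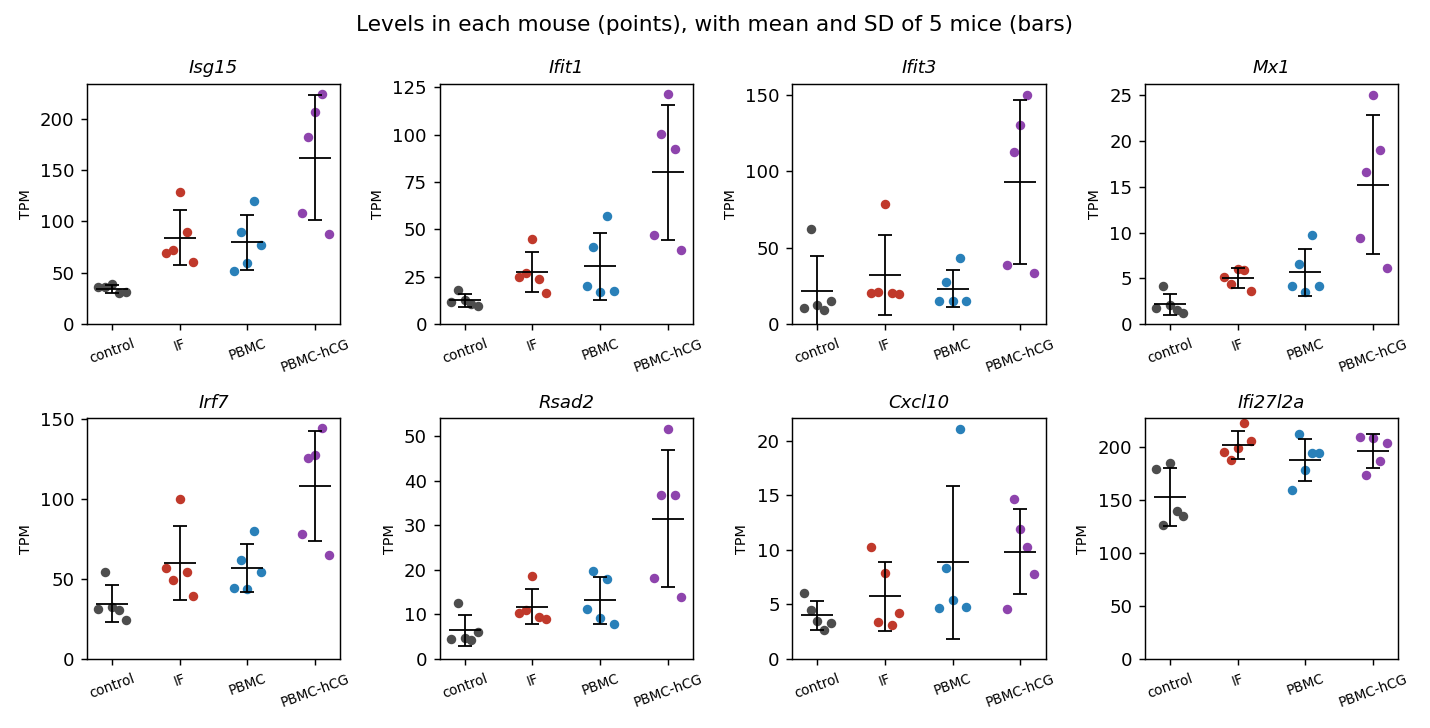
TPM of 8 of the genes in each mouse, by group, with horizontal bars for the mean and whiskers for the SD of 5 mice. Isg15 lies between 30.2 and 38.8 TPM in control and between 87.5 and 224 TPM in PBMC-hCG, while IF mouse 3 and control mouse 2 stand apart for Ifit3 and every IF mouse is above every control for Ifi27l2a.

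Parp9, Parp12 and Parp14 belong to the family of ADP-ribosyltransferases, and all 3 rose in PBMC-hCG against IF. Parp12 (NCBI Gene 243771, chr6:39086412-39118349) measured 29.4, 26.9, 28.2, 27.7 and 25.6 TPM in control and 34.4, 34.1, 42.7, 37.3 and 26.5 TPM in IF. It measured 31.6, 36.1, 32.4, 42.8 and 33.03 TPM in PBMC and 40.2, 49.6, 51.4, 49.8 and 40.7 TPM in PBMC-hCG. IF mouse 5 lay among the controls, and IF mouse 3 was above PBMC-hCG mice 1 and 5. It rose by 0.33 ± 0.11 in IF against control (limma adjusted p = 0.0384), kept in 2 of the 10 fits that leave out 1 mouse, and by 0.41 ± 0.11 in PBMC-hCG against IF (adjusted p = 0.031).

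Rsad2 (NCBI Gene 58185, chr12:26442743-26456452), the enzyme viperin that makes a chain-terminating nucleotide, and its chromosomal neighbour Cmpk2, a mitochondrial nucleotide kinase, were among the other intracellular effectors. Rsad2 measured 4.40, 12.6, 4.79, 4.24 and 5.97 TPM in control and 10.4, 11.04, 18.6, 9.47 and 8.97 TPM in IF. It measured 11.2, 19.8, 9.14, 17.9 and 7.79 TPM in PBMC and 18.3, 36.9, 51.6, 36.8 and 13.8 TPM in PBMC-hCG. Control mouse 2 was above most IF mice, and PBMC-hCG mice 2, 3 and 4 were above every other mouse. It did not pass in IF against control (0.94 ± 0.37, limma adjusted p = 0.0742) and rose by 1.32 ± 0.37 in PBMC-hCG against IF (adjusted p = 0.0337). Cmpk2 did likewise, with 1.06 ± 0.29 in PBMC-hCG against IF (limma adjusted p = 0.034).

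Bst2 (NCBI Gene 69550, chr8:71534255-71537472), tetherin, which holds budding virions at the cell surface, was the most abundant of the 45 genes on the TPM scale. It measured 255, 392.3, 229.6, 208 and 223 TPM in control and 274, 289.6, 426, 354 and 287 TPM in IF. It measured 282, 300.02, 259.7, 327 and 297 TPM in PBMC and 350.1, 370.2, 325, 389 and 295 TPM in PBMC-hCG. Control mouse 2 was above every other control and every PBMC-hCG mouse. Its difference in PBMC-hCG against IF was 0.10 ± 0.15, with a 95% interval of -0.21 to 0.41, and it rose in PBMC-hCG against control by 0.44 ± 0.15 (limma adjusted p = 0.0296), a call kept in 4 of the 10 fits that leave out 1 mouse.

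Ifi27l2a, named after its values were seen because it alone had its highest mean in the IF group, measured 179, 126, 185, 139.7 and 134 TPM in control and 195, 187, 199, 222 and 205 TPM in IF. It measured 209.5, 173, 208, 187 and 203 TPM in PBMC-hCG. Every IF mouse was above every control, and the PBMC-hCG mice overlapped both groups. The rise in IF against control was 0.42 ± 0.10 (limma adjusted p = 0.00571), and the difference in PBMC-hCG against IF was -0.04 ± 0.10, with a 95% interval of -0.25 to 0.17. Of the rest of the effectors, Ifi44 and Sp100 rose in IF against control, kept in 10 and 5 of the 10 fits that leave out 1 mouse, Rtp4, Xaf1 and Ifi44 rose in PBMC-hCG against IF, and Samd9l and Ifi35 passed only in PBMC-hCG against control.

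The secreted proteins were the chemokines Cxcl9 and Cxcl10, which draw T cells and NK cells through the receptor CXCR3, and Lgals3bp, a glycoprotein that binds galectins. Cxcl10 (NCBI Gene 15945, chr5:92346638-92348889) measured 6.07, 4.50, 3.44, 2.70 and 3.34 TPM in control and 10.3, 3.37, 7.85, 3.10 and 4.17 TPM in IF. It measured 4.63, 8.34, 5.38, 21.1 and 4.80 TPM in PBMC and 4.56, 14.7, 11.9, 10.3 and 7.82 TPM in PBMC-hCG. PBMC mouse 4 was the highest of all 20, and all 4 groups overlapped. It passed only in PBMC-hCG against control, by 1.23 ± 0.42 (limma adjusted p = 0.031), kept in 4 of the 10 fits that leave out 1 mouse.

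Lgals3bp (NCBI Gene 19039, chr11:118392747-118401959) came next after Bst2 in abundance, at 208, 266, 200.2, 197 and 207 TPM in control and 187, 194, 287, 204 and 191 TPM in IF. It measured 179, 202, 183, 221 and 185 TPM in PBMC and 221, 289, 262, 322 and 202 TPM in PBMC-hCG. Control mouse 2 and IF mouse 3 were apart from their groups, and the other controls, IF and PBMC mice lay close together. It passed in no comparison, with 0.28 ± 0.13 in PBMC-hCG against IF (limma adjusted p = 0.127). Cxcl9 had the lowest mean of the 45 genes, between 0.831 and 5.24 TPM in control, and also passed in no comparison.

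IF against control and PBMC-hCG against PBMC share no mouse, so that the values of a gene in them can be set side by side. Isg15 differed by 1.24 ± 0.26 in the former and 0.995 ± 0.26 in the latter, Ifit1 by 1.09 ± 0.36 and 1.44 ± 0.36, and Mx1 by 1.27 ± 0.36 and 1.35 ± 0.36. Ifit3 differed by 0.70 ± 0.55 and 1.88 ± 0.55, and Gbp2 by 0.51 ± 0.24 and 0.13 ± 0.24. The genes were above 0 in 42 and 45 cases, as were 53.4% and 54.5% of all tested genes.

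**Figure D5:**
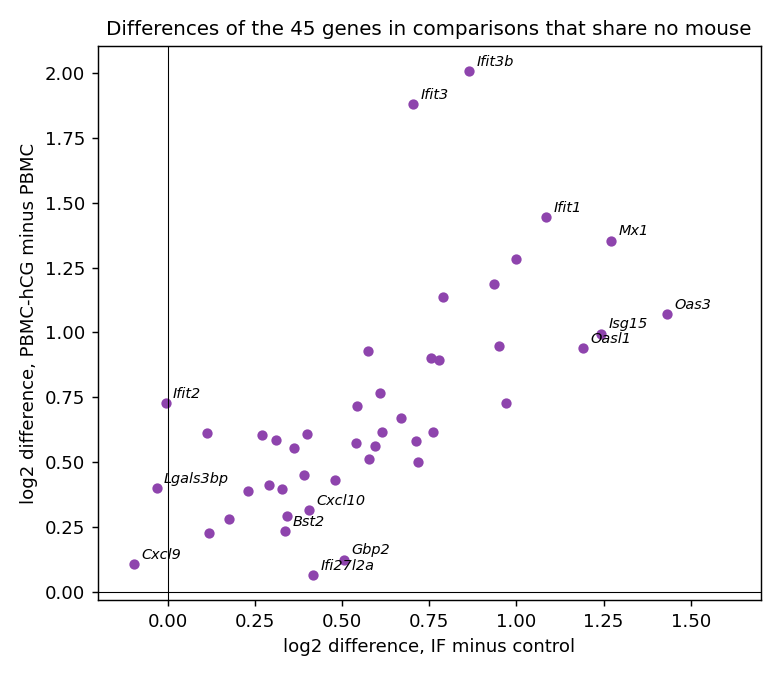
Each point is 1 of the 45 genes, with its log2 difference of IF minus control on the x axis and of PBMC-hCG minus PBMC on the y axis, both on the log2(TPM + 0.1) scale. All 45 points lie above 0 on the y axis and 42 lie right of 0 on the x axis, with Ifit3b and Ifit3 highest and Oas3 farthest right. Of all tested genes, 54.5% lie above 0 and 53.4% right of 0.

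The genes that would make, receive and limit an interferon signal were looked at in lists written for this work. Over all tested genes 13.4% rose and 8.53% fell in IF against control. These shares were 7.61% and 5.99% in PBMC-hCG against IF, and 20.2% and 11.6% in PBMC-hCG against control. Several counts below lie near these shares. Of 21 interferon genes, 14 were listed at 0 in all 20 libraries, Ifnb1 among them. Ifne, the interferon of the female reproductive tract, and Ifnz were above 0 in every library and neither passed in any comparison. Ifng was above 0 in 19 libraries, with means of 0.43, 0.241, 0.357 and 0.497 TPM in control, IF, PBMC and PBMC-hCG. The lambda interferons Ifnl2 and Ifnl3 were above 0 in 4 and 6 libraries.

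Of 9 receptor subunits and Janus kinases, 3 rose and 1 fell in IF against control, 1 rose in PBMC-hCG against IF and 4 rose in PBMC-hCG against control. Ifnar1, a subunit of the type I receptor, had a mean of 31.7 TPM in control and 42.9 TPM in IF and rose by 0.44 ± 0.09 (SE) on the log2 scale (limma adjusted p = 0.00117). Of 8 STAT and IRF factors outside the 45 genes, 3 rose in IF against control, 1 in PBMC-hCG against IF and 5 in PBMC-hCG against control.

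Of 13 other sensors and adaptors, 4 rose in IF against control, 2 in PBMC-hCG against IF, and 7 rose and 1 fell in PBMC-hCG against control. Ddx58, which encodes the RNA sensor RIG-I, averaged 30.2 TPM in IF and 52.6 TPM in PBMC-hCG and rose by 0.80 ± 0.20 (limma adjusted p = 0.0287). Tmem173, which encodes STING, the adaptor of cytosolic DNA sensing, averaged 59.7 TPM in control and 99.0 TPM in IF and rose by 0.73 ± 0.13 (limma adjusted p = 0.00039).

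Of 7 feedback regulators, 1 rose in IF against control and 2 fell in PBMC-hCG against IF. Socs1, an inhibitor of Janus kinases, averaged 10.98, 28.0, 17.5 and 13.7 TPM in control, IF, PBMC and PBMC-hCG, rising by 1.21 ± 0.30 in IF against control (limma adjusted p = 0.00776) and falling in PBMC-hCG against IF (-0.94 ± 0.30, adjusted p = 0.048). Socs3, the inhibitor of signalling by the interleukin-6 family, averaged 78.0 TPM in IF and 30.3 TPM in PBMC-hCG and fell by 1.25 (limma adjusted p = 0.0386). The remaining 5 passed in neither comparison, and 0 of the 7 passed in PBMC-hCG against control.

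A further 57 interferon-stimulated genes outside the 45 were all tested. Of them 14 rose and 2 fell in IF against control, where 13.4% of all tested genes rose. In PBMC-hCG against IF 18 rose and 0 fell, where 7.61% of all tested genes rose. In PBMC-hCG against control 39 rose and 2 fell, where 20.2% of all tested genes rose. The medians of the 57 genes were 0.24, 0.31 and 0.58 in the same order. In PBMC against IF 0 passed. Apol9a, of the apolipoprotein L family, averaged 4.07, 5.95, 7.12 and 13.3 TPM in the 4 groups and rose in PBMC-hCG against control by 1.77 ± 0.32 (limma adjusted p = 0.000488), and Ddx60, a helicase that aids RIG-I, by 1.64 ± 0.30 (adjusted p = 0.000507). Ifi205 and Pnpt1 fell in PBMC-hCG against control.

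Markers of the cell types that a whole uterus or injected cells could bring were set beside the 45 genes. The shares of all tested genes that rose or fell, given with the pathway lists, are the background of these counts too. The tissue was as labelled, with summed levels of stroma markers between 2010 and 2929 TPM and of myometrium markers between 4806 and 11100 TPM over the 20 libraries. Of 5 pan-leukocyte markers, 2 rose in IF against control, 0 in PBMC-hCG against IF and 5 in PBMC-hCG against control, with summed levels of 312 to 376 TPM in control, 355 to 468 in IF, 330 to 473 in PBMC and 365 to 523 in PBMC-hCG. All 5 endothelial markers rose in IF against control and in PBMC-hCG against control and 1 rose in PBMC-hCG against IF, with sums of 316 to 425, 473 to 510, 479 to 545 and 523 to 590 TPM in the same order. None of the marker genes of any list was at 0 in every library.

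Of 12 T cell markers 11 were tested, and 1 rose in IF against control, 0 in PBMC-hCG against IF and 4 in PBMC-hCG against control. Of 8 NK cell markers the numbers were 1, 0 and 4, with sums of 103 to 190 TPM in control and 177 to 216 TPM in PBMC-hCG. Of 10 monocyte and macrophage markers they were 2, 0 and 2, and of 8 dendritic cell markers 1, 0 and 0. Of 10 B cell and plasma cell markers 7 were tested, and 0 rose and 2 fell in IF against control, where Igkc and Jchain, the transcripts of antibody chains, were the 2 that fell. Their sums were 861 to 3431 TPM in control and 188 to 565 TPM in PBMC-hCG.

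Of 7 epithelial markers 4 rose and 1 fell in IF against control, 1 rose in PBMC-hCG against IF, and 4 rose and 1 fell in PBMC-hCG against control, with sums of 511 to 930 TPM in control, 761 to 981 in IF, 828 to 1075 in PBMC and 883 to 1177 in PBMC-hCG. Of 6 myometrial markers 1 fell in IF against control, 0 in PBMC-hCG against IF and 5 in PBMC-hCG against control. Their sums were 5900 to 11100 TPM in control, 5950 to 7431 in IF, 5795 to 7130 in PBMC and 4806 to 6039 in PBMC-hCG. The medians of these sums were 8098, 6407, 6672 and 5439 TPM in the same order. Of 7 stroma markers 2 rose and 2 fell in IF against control, 2 rose in PBMC-hCG against IF, and 3 rose and 3 fell in PBMC-hCG against control. Of 6 neutrophil markers 4 were tested, and 1 rose in IF against control and 1 in PBMC-hCG against control. The sums of all 6 were 7.08 to 10.2 TPM in control, 9.23 to 30.6 in IF, 20.2 to 31.9 in PBMC and 12.2 to 16.9 in PBMC-hCG. The PBMC mice thus lay above every control and every PBMC-hCG mouse. In PBMC against IF 0 of all tested genes passed, so no marker of any list did. Of 5 red cell markers 2 fell in PBMC-hCG against IF. The part of these cell types in the levels of the 45 genes was not tested.

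The mice that stood apart also differed in some of these sums. IF mouse 3 had a pan-leukocyte sum of 468 TPM and an epithelial sum of 981 TPM, the highest of its group, and a T cell sum of 115 TPM, also the highest. PBMC mouse 4 had a pan-leukocyte sum of 473 TPM, the highest of its group, and an NK cell sum of 201 TPM. Control mouse 2 had an epithelial sum of 930 TPM, the highest control, and the lowest myometrial sum of the controls, 5900 TPM. Control mouse 5, the lowest of the 20 mice in its median of the 45 genes, had the highest myometrial sum of the 20, 11100 TPM. The part of this in their levels of the 45 genes was not tested.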

How the data were processed

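RNA from the uterus of 20 mice was sequenced as polyA-selected stranded libraries. According to the study's methods, reads were trimmed with Trimmomatic, mapped to mm10 with HISAT2 and quantified with StringTie, and the authors deposited gene levels as TPM, which corrects for transcript length and library total. The totals were 999988 to 999999 TPM, and 22702 to 24097 genes were above 0 in a library. TPM keeps no depth, so counting error could not be given.

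Values were taken as log2(TPM + 0.1) for the 18706 of 45777 genes above 0 TPM in all 20 libraries, and fitted with limma 3.58.1 (R 4.3.3), with all 4 groups in 1 fit and a variance trend. Adjustment followed Benjamini and Hochberg, over all tested genes in each of 6 comparisons, and a call is an adjusted p under 0.05, two-sided. The study's own test, edgeR's exact test, needs counts and was not used. The error after ± is the SE of the fit. Fold changes on this scale understate those of low genes. Libraries of a group correlated at 0.961 or above, and no columns were identical. P-values measure only the spread between these mice.

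The 45 genes and the other lists were chosen with earlier results of these data known. Values for every mouse are given for the 3 largest differences among those that passed in a comparison, the highest mean of each role group and the 3 widest spreads within groups. Other genes were named after their values were seen. Gene identifiers, coordinates and promoters came from RefSeq on GRCm38.p6 (45 of 45 genes matched), and shared 50-base words from GENCODE M21 transcripts. The scripts were tested on simulated data. Alternatives were other pseudocounts, filters, scalings, variance models, the replicate block, array quality weights, a fold rule and leaving out each mouse. Figures were drawn with matplotlib 3.10.9 (Python 3.11.15). A gene of the factor list is not reported here by name.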

Additional observations from a re-analysis of the deposited data

Results flagged for a closer look

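The 5 values of each group, for each of the 45 genes and for the median over them in each mouse, were looked at for a single mouse far from the rest, by dividing the gap between the extreme mouse and its nearest neighbour by the range of the group, with 0.71 as the critical value. Of 184 sets of 5 values 17 exceeded it, and chance gives about 5%. Genes of this kind vary together, so these are not independent observations, and the cause was not tested.

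IF mouse 3 was high for 7 genes, with ratios of 0.95 for Ifit3, 0.798 for Lgals3bp, 0.763 for Stat2, 0.74 for Irgm1, 0.727 for Oas2, 0.716 for Ifit3b and 0.715 for Rsad2. Control mouse 2 was high for 5 genes, with ratios of 0.807 for Lgals3bp, 0.778 for Ifi44, 0.742 for Cmpk2, 0.738 for Ifit3 and 0.715 for Usp18, and it was low for Eif2ak2 (0.745). PBMC mouse 4 was high for Igtp (0.841) and Gbp2 (0.739), which respond strongly to interferon gamma. Control mouse 5 was low for Dtx3l (0.768) and Xaf1 (0.741). No PBMC-hCG mouse was among the 17.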

How the results depend on the processing

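The direction of the median of the 45 genes held under every alternative in IF, PBMC and PBMC-hCG against control, in PBMC-hCG against IF and in PBMC-hCG against PBMC. In PBMC against IF, where no gene passed, the median of 0.026 became -0.004 with equal library medians. Scaling to Gapdh and Rplp0 left 11 genes that rose in IF against control and 7 in PBMC against control, and it moved the median of all tested genes to 0.152 in PBMC-hCG against IF, 0.125 in PBMC-hCG against PBMC and 0.144 in PBMC-hCG against control. With no filter on low values 7 genes passed in PBMC-hCG against IF and 12 in PBMC against control. With array quality weights 33 passed in PBMC-hCG against PBMC and 35 in PBMC against control. The rule of a fold change of at least 2 with an unadjusted p under 0.05 gave 5 genes in IF against control, 10 in PBMC-hCG against IF, 8 in PBMC-hCG against PBMC and 7 in PBMC against control. The cause of these shifts was not tested.

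Leaving out 1 mouse at a time gave 13 to 26 genes in IF against control, 0 to 38 in PBMC-hCG against IF, 7 to 32 in PBMC against control and 40 to 44 in PBMC-hCG against control, and 0 to 0 in PBMC against IF and in PBMC-hCG against PBMC. The medians ran from 0.42 to 0.64 in IF against control, 0.59 to 0.82 in PBMC-hCG against IF, 0.44 to 0.73 in PBMC against control, 1.06 to 1.28 in PBMC-hCG against control, 0.53 to 0.74 in PBMC-hCG against PBMC and -0.10 to 0.16 in PBMC against IF.

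With the replicate block, 27 genes passed in IF against control, 33 in PBMC-hCG against IF, 30 in PBMC against control, 42 in PBMC-hCG against control and 0 in PBMC against IF and in PBMC-hCG against PBMC. Mice of the same number correlated at -0.247 to 0.457 in their deviations from the group means. Of 30 such pairs 8 were over 0.1, and 2 of the 20 mice correlated best with a mouse of their own number. Highest were the mice numbered 5, at 0.457 for IF and PBMC, 0.396 for control and IF and 0.272 for control and PBMC. The pairs of PBMC-hCG mouse 5 with control, IF and PBMC mouse 5 were at -0.059, -0.090 and -0.083. In each group mouse 5 was the lowest for the most interferon-stimulated genes, narrowly so in PBMC (17, against 14 for mice 1 and 3). Across all numbers the correlations do not show a pairing of the mice. Whether the mice numbered 5 shared a condition was not tested. Depth could not be judged from TPM.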
